A study of Mus musculus with 12 samples.

Results

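RNA of whole sciatic dorsal root ganglia (DRG) was compared between mice kept in an enriched environment (EE) and mice kept in standard housing (SH), over both kinds of surgery. All 12 RNA-seq samples of the series entered this comparison, 6 from EE and 6 from SH, and in each housing 3 samples came from mice with a sham operation and 3 from mice with a sciatic nerve axotomy (SNA). Surgery was kept as a term of the model, so that a gene was tested for its shift by EE averaged over both surgeries. The test does not ask whether both surgeries share the shift. A gene shifted under sham surgery only, or under SNA only, can pass it. By the labels the animals of every group were C57BL/6 mice of 5 to 8 weeks, while the study's methods name the J substrain and give age ranges that differ. They lived for 10 days in SH or EE, were then operated on, and gave their ganglia 24 h later. Each sample was a pool of the ganglia of 2 mice, so that the 4 groups (SH and sham, EE and sham, SH and SNA, EE and SNA, the last written EE + SNA) stand for 6 mice each. EE cages were larger, held more animals and had a running wheel, a tunnel, an igloo, more nesting material, changing wooden objects and food treats, so that exercise, company and diet cannot be told apart in the word EE.

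DRG hold the cell bodies of sensory neurons, each wrapped in satellite glia, beside the Schwann cells of the axons, vessels, fibroblasts and immune cells. Cutting a peripheral axon is known to switch these neurons to a growth program, and EE given before an injury has been described as a way to raise their capacity to grow. Myelinating and growing cells need cholesterol, which is made from acetyl-CoA through mevalonate, isopentenyl pyrophosphate, squalene and lanosterol. The genes of this route share control by the SREBP transcription factors, which are held back in the endoplasmic reticulum by the INSIG proteins when sterol is plentiful.

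Between 11343579 and 22871460 reads per sample lay on genes, with the highest total in EE + SNA replicate 2, and scaling factors lay between 0.978 and 1.02. Of 44345 gene names, 16238 passed the filter on low counts and were tested. Levels are given as CPM, scaled reads of a gene relative to all reads on genes, in parts of 10 to the sixth power, which are not divided by gene length and are compared here between samples of 1 gene only. Of the 13 sensory neuron markers 12 were tested, and their summed level lay between 13289 and 15250 CPM in the 12 samples. The injury gene Atf3 checked the surgery labels. It lay between 110 and 168 CPM in the 6 sham samples and between 454 and 549 CPM in the 6 SNA samples. In SH SNA replicate 2 the skeletal muscle markers added up to 1739 CPM, against 125 to 440 CPM in the other samples, and in EE + SNA replicate 3 the neutrophil markers added up to 832 CPM, against 84.6 to 360 CPM. In the study's text the EE Sham data had been published before, while the labels carry all groups alike and give no batch. If those libraries were sequenced apart, batch and housing cannot be told apart within sham surgery.

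The shift by EE was small in the DRG as a whole. With surgery in the model, 762 genes passed an unadjusted P-value of 0.05 in edgeR's quasi-likelihood test, 4.69% of those tested, where 5% would pass if no gene differed. Of these 416 (2.56%) were higher and 346 (2.13%) were lower in EE. No gene passed a Benjamini-Hochberg adjusted P-value of 0.05 in this test, and the smallest adjusted value was 0.164. After adjustment 5 genes passed edgeR's likelihood ratio test, the kind the study used, and 4 passed DESeq2. The balance of directions depended on the scaling: by library size alone 340 genes were higher and 445 lower, and on the FPKM scale (log2 of FPKM + 1) 328 and 511. The median absolute log2 fold change of the 762 genes was 0.22, and 15 of them differed by more than 1 on the log2 scale. In the same model 5639 genes (34.7%) differed between SNA and sham surgery, and 3638 (22.4%) did so after adjustment. All calls below are at the unadjusted threshold unless said otherwise, and the P-values printed beside genes are adjusted over all 16238. They are printed for the leading genes only.

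The direction under both surgeries was read from 2 separate fits that share no sample. Within sham surgery 483 genes passed (2.97%), of which 227 (1.4%) were higher and 256 (1.58%) lower in EE. With the replicate number as a block, which treats same-numbered samples as pairs, 847 passed. After adjustment 1 gene passed within sham (0.00616%), Zbtb16. Within SNA 666 genes passed (4.1%), of which 351 (2.16%) were higher and 315 (1.94%) lower, and 0 after adjustment. By the interaction of housing and surgery 423 genes passed (2.61%), 220 with a positive (1.35%) and 203 with a negative sign (1.25%), and 0 after adjustment. Passing in both fits were 48 genes, 39 of them in the same direction (0.24% of all genes, 22 or 0.135% higher and 17 or 0.105% lower) and 9 in opposite directions (0.0554%). Of the genes that passed within sham, 65.6% had the same sign within SNA, against 53.3% of all genes tested. Of the genes that passed within SNA, 62.8% had the same sign within sham. The groups did not overlap in 7.61% of genes within sham and in 10.4% within SNA. In 93 genes (0.573%, 43 or 0.265% higher and 50 or 0.308% lower) the 3 EE samples lay all above or all below the 3 SH samples under both surgeries in 1 direction, and in 55 genes (0.339%) they did so in opposite directions. Across all genes the log2 fold changes under the 2 surgeries had a Pearson correlation of 0.058 and a Spearman correlation of 0.083, a description over genes, which are not independent replicates. In order of their pooled P-value, the 22 higher genes were Kcnmb1, Stard4, Cyr61, Mvd, Slc1a5, Insig1, Rdh11, Fzd7, Cxcl12, Lss, Idi1, Hnrnpd, Sh2d4a, Foxd1, 0610009D07Rik, Edn1, Dpep1, mt-Tp, Gstm1, Perp, Galnt16 and Plin4. The 17 lower genes were Acer2, Hes5, Chst2, Nid2, Zfp366, Lect1, Tra2a, Cdk5r1, Slc4a11, Net1, Srm, P4ha1, Gm20421, AC163357.1, Gstcd, Mtss1l and Ednrb. The count of 39 rests in part on single samples. It was 60 without EE Sham replicate 1 and 22 without SH Sham replicate 3, DESeq2 gave 19, and blocking on the replicate number gave 106.

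**Figure D1:**
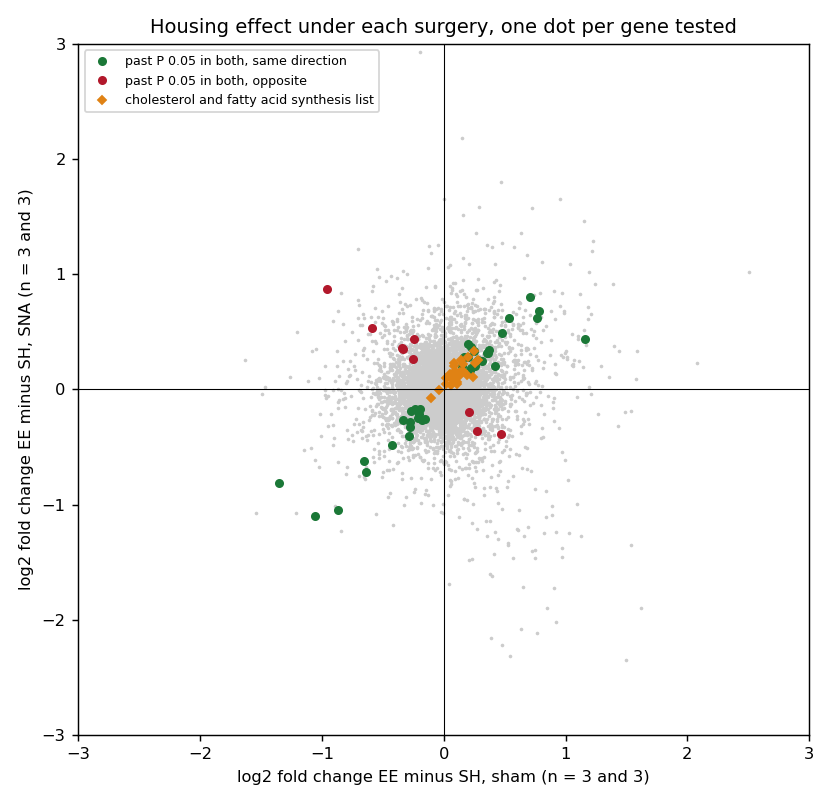
Log2 fold change (EE minus SH) of each of the 16238 genes tested within sham surgery (horizontal axis) and within SNA (vertical axis), 3 samples per group. The 39 genes that passed in both fits in the same direction are green, the 9 in opposite directions red, and the 28 cholesterol and fatty acid synthesis genes orange, all 28 of which have 1 sign on both axes.

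The genes of cholesterol and fatty acid synthesis were the list with the most members higher in EE. All 28 genes of the list were tested, 15 were higher and 0 were lower, against 2.56% and 2.13% of all genes. The members of this list, like those of the others, were chosen with earlier results of these data known. Its count is thus no independent support. None of the 15 passed after adjustment over all genes. The log2 fold change was positive in 26 members, and in all 28 members its sign was the same under both surgeries. The median over the list was 0.12, against 0.0016 over all genes, and it was 0.095 within sham and 0.13 within SNA. Within sham 6 members passed, within SNA 10 passed, and 0 differed between surgeries by the interaction. The shift was small per gene. The highest of the 28 was that of Lss, a fold change of 1.22. The members share their regulators and were measured in the same libraries, so that they are not 28 independent observations.

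**Figure D2:**
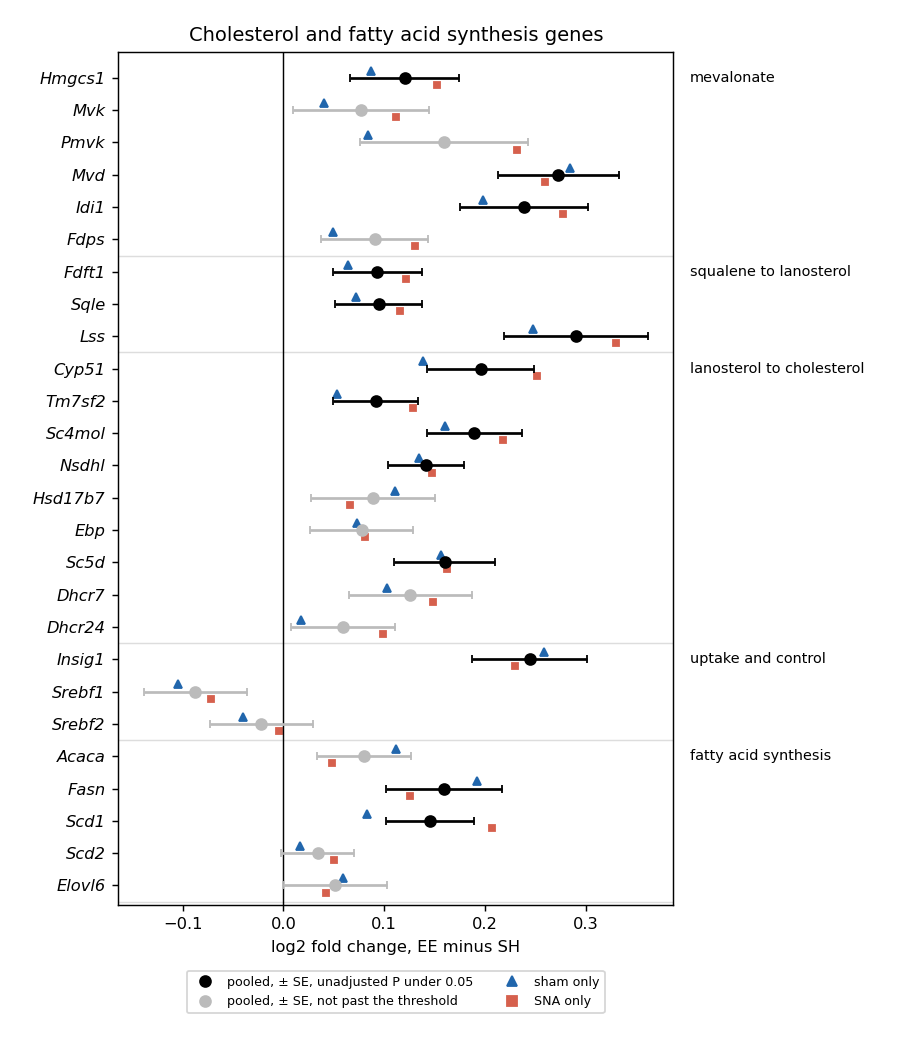
Log2 fold change (EE minus SH) of 26 of the 28 genes of cholesterol and fatty acid synthesis, ordered by step of the route. Circles are the pooled values over 6 and 6 samples with their standard error, black where the unadjusted P-value is under 0.05, and triangles and squares are the values within sham and within SNA. 24 of 26 circles lie to the right of 0, and the 2 to the left are Srebf1 and Srebf2.

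In the mevalonate part of the route 4 of 7 genes were higher. Mvd encodes mevalonate diphosphate decarboxylase (ENSMUSG00000006517, chromosome 8 from 122433601 to 122443422 of GRCm38, minus strand). Its level was 47.3, 45.5 and 48.6 CPM in SH Sham, 58.1, 52.6 and 61.8 CPM in EE Sham, 46.8, 61.3 and 54.9 CPM in SH SNA and 60.1, 67.0 and 67.5 CPM in EE + SNA. Every EE Sham sample was above every SH Sham sample, while under SNA 1 SH sample, replicate 2, lay above the lowest EE sample. On the log2 scale the difference (EE minus SH) was 0.27 ± 0.060 (SE, adjusted P = 0.542). Idi1, the isomerase of isopentenyl pyrophosphate, was at 344, 295 and 279 CPM in SH Sham and at 360, 317 and 377 CPM in EE Sham, which overlap, and at 329, 383 and 302 CPM in SH SNA and 414, 394 and 421 CPM in EE + SNA, which do not. Its log2 fold change was 0.24 ± 0.063 (adjusted P = 0.809). Hmgcs1, the synthase that makes HMG-CoA, was higher by 0.12 ± 0.054 on the log2 scale. It passed in 13 of 24 alternative fits, which used other tests, scalings, filters and covariates or left a sample out.

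All 3 genes from squalene formation to lanosterol were higher. Lss, the lanosterol synthase (ENSMUSG00000033105, chromosome 10 from 76531588 to 76557138), was at 55.7, 42.0 and 45.9 CPM in SH Sham, 60.5, 53.8 and 56.9 CPM in EE Sham, 44.1, 46.9 and 45.2 CPM in SH SNA and 54.0, 66.0 and 50.3 CPM in EE + SNA. The SNA groups did not overlap, and in sham only SH replicate 1 reached the EE range. The log2 fold change was 0.29 ± 0.072 (adjusted P = 0.65). Sqle, squalene epoxidase, and Fdft1, squalene synthase, had log2 fold changes of 0.094 ± 0.043 and 0.093 ± 0.044, close to the threshold. Fdft1 passed in only 7 of 24 alternative fits. Of the exon bases of Fdft1 18.3% overlap Ctsb on the other strand, so that its reads may be shared.

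Between lanosterol and cholesterol 5 of 9 genes were higher and the other 4 had positive values that did not pass. Sc4mol, now called Msmo1, the sterol 4-methyl oxidase, was at 265, 233 and 239 CPM in SH Sham, 274, 253 and 297 CPM in EE Sham, 238, 263 and 241 CPM in SH SNA and 283, 287 and 293 CPM in EE + SNA. The SNA groups were apart and the sham groups overlapped by 1 SH sample. On the log2 scale the difference (EE minus SH) was 0.19 ± 0.047 (adjusted P = 0.65). Cyp51, the lanosterol demethylase, was higher by 0.20 ± 0.053 (adjusted P = 0.831), Nsdhl, a sterol dehydrogenase, by 0.14 ± 0.038 (adjusted P = 0.825) and Sc5d, a desaturase, by 0.16 ± 0.050 on the log2 scale. In each of these 3 genes the SNA groups did not overlap and the sham groups did. Tm7sf2, a sterol reductase, was close to the threshold (log2 fold change 0.091 ± 0.043), and 12.1% of its exon bases overlap Vps51 on the same strand.

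Among the genes that control the route, Insig1 was higher and neither SREBP gene passed. Insig1, which retains the SREBP escort and is itself an SREBP target (ENSMUSG00000045294, chromosome 5 from 28071363 to 28078662), was at 144, 139 and 124 CPM in SH Sham, 159, 152 and 177 CPM in EE Sham, 148, 172 and 136 CPM in SH SNA and 174, 184 and 177 CPM in EE + SNA. The groups did not overlap under either surgery. The log2 fold change was 0.24 ± 0.057 (adjusted P = 0.63). Srebf1 and Srebf2, which encode the SREBP proteins, had log2 fold changes of -0.088 ± 0.051 and -0.022 ± 0.051. Of the 5 fatty acid genes Fasn, the fatty acid synthase, and Scd1, a desaturase, were higher by 0.16 ± 0.057 and 0.15 ± 0.044 on the log2 scale.

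Stard4, a carrier of cholesterol between membranes, had the second smallest P-value among all genes higher in EE. Its level was 142, 123 and 131 CPM in SH Sham and 188, 148 and 174 CPM in EE Sham, which do not overlap, and 132, 169 and 125 CPM in SH SNA and 181, 187 and 161 CPM in EE + SNA, where SH replicate 2 lay above the lowest EE sample. On the log2 scale the difference (EE minus SH) was 0.34 ± 0.072 (adjusted P = 0.542). Stard4 was read together with 11 other genes of acetyl-CoA supply, transfer and escort, a set put together after the result on the list was known. Of the 12, 4 were higher and 0 lower, against 2.56% and 2.13% of all genes. Beside Stard4 these were Rdh11, a retinol dehydrogenase (0.21 ± 0.048, adjusted P = 0.63), Acss2, which makes acetyl-CoA from acetate (0.18 ± 0.047, adjusted P = 0.809), and Acat2, which joins 2 acetyl-CoA (0.15 ± 0.042). Stard4 and Rdh11 were already among the genes with the smallest P-values of the same fit, so that the count of 4 is no independent support. In Acss2 and Acat2 the groups did not overlap under either surgery. Genes that take sterol away were read in a pair of further sets. Of 8 genes of the LXR receptors and sterol efflux, also put together afterwards, only Lpcat3, an acyltransferase of phospholipids, was higher (0.18 ± 0.056, with 10.2% of exon bases overlapping Emg1), and the median of the 8 was -0.074. Abca1 and Abcg1, which export cholesterol, and Apoe, which carries it, had pooled values of -0.099, -0.10 and -0.11 that did not pass. Abca1 had 0.0034 within sham, but within SNA it passed as lower (-0.19) without overlap of the groups. Mylip, another of the 8, passed as higher within SNA (0.26). Of 4 genes of cholesterol catabolism and oxysterol synthesis, again chosen afterwards, 3 had positive values, the median was 0.10 and 0 passed.

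The summed level of the 28 genes was read in each sample. It was 7971, 7563 and 7677 CPM in SH Sham, 8399, 7810 and 8398 CPM in EE Sham, 7376, 8196 and 7654 CPM in SH SNA and 8426, 8670 and 8365 CPM in EE + SNA. The SNA groups did not overlap. Under sham EE replicate 2 lay below SH replicate 1, and the other 2 EE samples lay above all SH samples. Among sham samples that share a replicate number, the EE sample had the higher sum in each of the 3 pairs. The same held for Lss, Idi1 and Sc4mol. Whether these samples belong together as pairs is not settled by the data. The SH sample with the highest sum, SH SNA replicate 2, is the one with the high muscle markers. Without it 18 of the 28 genes were higher. Over every sample left out in turn, every other test and scaling and 3 covariates for marker levels, 11 to 18 were higher and 25 to 27 were positive, and the only count of members lower above 0 was 1, without SH SNA replicate 3.

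Markers of cells that make much lipid were read beside this result. The 16 markers of myelinating Schwann cells were all tested and 0 passed in either direction. Their summed level was 8511 to 10333 CPM in SH Sham, 7609 to 10653 CPM in EE Sham, 9186 to 13286 CPM in SH SNA and 11088 to 14180 CPM in EE + SNA, so that the housing groups overlapped under both surgeries. Of 8 adipocyte markers tested 4 were higher and 0 lower, against 2.56% and 2.13% of all genes. Within SNA 7 were higher and within sham 0, with median log2 fold changes of 1.24 and 0.27. Their summed level was 15.3 to 35.1 CPM in SH Sham, 14.6 to 51.8 CPM in EE Sham, 16.5 to 38.6 CPM in SH SNA and 30.02 to 109 CPM in EE + SNA, highest in EE + SNA replicate 1. No adipocyte marker passed without that sample, nor without SH SNA replicate 3, where 12 and 11 of the 28 synthesis genes did, and 7 passed without EE Sham replicate 1. With the adipocyte level as a covariate, added after the data were seen, 17 of the 28 were higher. Whether fat cells have a part in the shift of the 28 genes was not tested. In whole ganglia, a difference in the number of cells of a type and a difference in RNA per cell cannot be told apart.

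**Figure D3:**
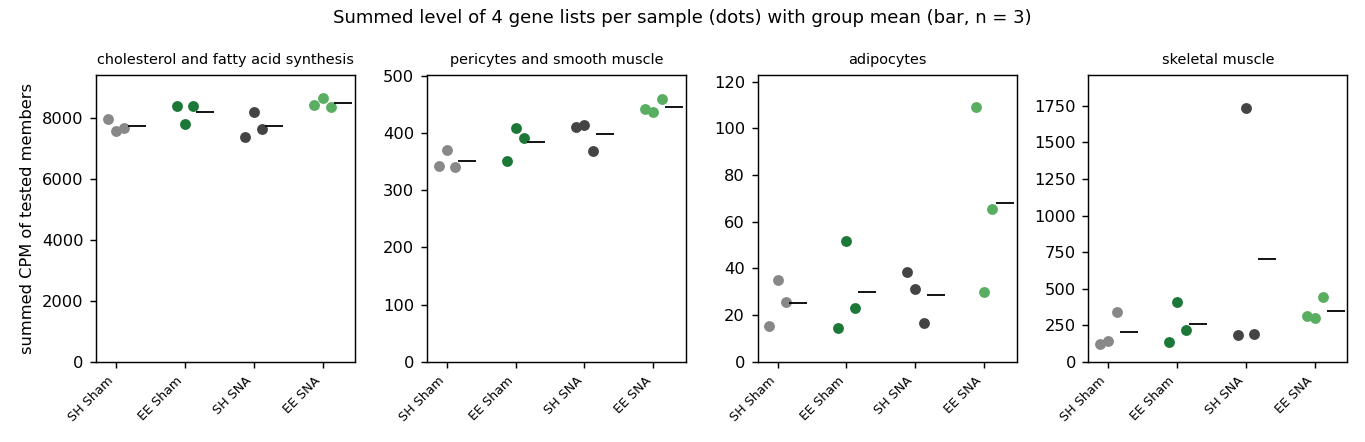
Summed CPM of the tested members of 4 lists in each of the 12 samples (dots, 3 per group in the order SH Sham, EE Sham, SH SNA, EE + SNA), with the group mean as a short bar. The cholesterol and fatty acid list is higher in EE under both surgeries with an overlap in sham, while the adipocyte markers are highest in EE + SNA replicate 1 and the muscle markers in SH SNA replicate 2.

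Promoters were read because these genes moved together. RefSeq start sites on GRCm38.p6 gave windows of 300 bases (250 before the start and 50 after it) for 11880 of the 16238 genes tested (73.2%) and for 20 of the 28. The CCAAT box, searched as ATTGG on both strands, was present in 18 of the 20 genes, against 42.3% of all genes with a window. A sterol element searched as TCACNCCAC on both strands was present in 1 of the 20, Hmgcs1, against 1.39% of all genes. Both motifs were chosen after the values of these genes had been seen. Windows before the start of 5 genes that were higher are shown for these motifs, which stand in capitals, and no base shown lies in an annotated exon. Mvd is on chr8:122443423-122443532 (minus strand), Lss on chr10:76531495-76531580 (plus), Hmgcs1 on chr13:119690171-119690321 (plus), Sc5d on chr9:42264301-42264410 (minus) and Fasn on chr11:120824548-120824657 (minus).
Mvd: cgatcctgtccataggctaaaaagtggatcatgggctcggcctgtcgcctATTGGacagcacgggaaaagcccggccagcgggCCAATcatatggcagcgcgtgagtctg
Lss: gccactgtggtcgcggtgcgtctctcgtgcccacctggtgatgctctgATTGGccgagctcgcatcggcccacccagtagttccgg
Hmgcs1: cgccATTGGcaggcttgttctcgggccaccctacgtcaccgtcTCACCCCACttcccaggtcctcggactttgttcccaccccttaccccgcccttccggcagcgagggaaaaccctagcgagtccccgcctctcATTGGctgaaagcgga
Sc5d: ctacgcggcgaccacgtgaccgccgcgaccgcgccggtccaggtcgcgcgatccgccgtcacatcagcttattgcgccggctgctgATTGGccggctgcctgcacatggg
Fasn: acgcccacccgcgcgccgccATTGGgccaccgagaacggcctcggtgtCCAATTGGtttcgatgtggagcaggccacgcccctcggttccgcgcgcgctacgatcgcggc

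Of the motifs tied to other programs, the E-box CACGTG was present in 4 of the 20 genes (11.2% of all genes) and the CRE TGACGTCA and the glucocorticoid half-palindrome ACANNNTGT in 0 (3.4% and 5.37%). Among all genes at an unadjusted P-value under 0.001, 12 were higher and 10 lower, and 10 and 6 had a window. Of these the E-box was present in 2 of the 10 and 0 of the 6, and the CRE in 0 and 1. The glucocorticoid half-palindrome, the D-box TTATGTAA, the STAT motif TTCNNNGAA, the heat shock motif GAANNTTC and the EGR motif GCGTGGGCG were in none of the windows of these 16 genes (0.707% to 8.23% of all genes).

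Outside lipid synthesis, the gene with the smallest P-value among those higher in EE was Kcnmb1, the beta subunit of the large-conductance calcium-activated potassium channel, which is known from smooth muscle (ENSMUSG00000020155, chromosome 11 from 33963013 to 33973641). It was at 50.3, 46.8 and 45.9 CPM in SH Sham, 53.0, 56.2 and 54.8 CPM in EE Sham, 34.0, 36.9 and 32.5 CPM in SH SNA and 46.9, 45.3 and 43.6 CPM in EE + SNA. The groups did not overlap under either surgery, and the gene was also lower after SNA than after sham surgery (log2 fold change -0.37). The log2 fold change was 0.29 ± 0.050 (adjusted P = 0.164). Cyr61, a secreted matrix protein now called Ccn1, was at 3.61 to 6.24 CPM in SH Sham, 4.96 to 9.41 CPM in EE Sham, 5.15 to 5.89 CPM in SH SNA and 7.83 to 12.5 CPM in EE + SNA. Its SNA groups did not overlap, its sham groups did, and its log2 fold change was 0.75 ± 0.16 (adjusted P = 0.542). Slc1a5, a carrier of glutamine and other neutral amino acids, did not overlap under either surgery (31.9 to 33.9 CPM against 37.9 to 46.8 CPM in EE under sham, 36.9 to 45.4 CPM against 45.9 to 50.3 CPM in EE under SNA). Its log2 fold change was 0.28 ± 0.062 (adjusted P = 0.542).

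The other higher genes named by the rule were receptors, a chemokine and a gene of low level. Fzd7, a receptor of Wnt ligands, was higher by 0.36 ± 0.085 (adjusted P = 0.633), and Cxcl12, a chemokine that attracts cells bearing CXCR4, by 0.30 ± 0.072 (adjusted P = 0.65) on the log2 scale. Exoc3l2, related to the exocyst, was at 0.802 to 0.997 CPM in SH Sham, 1.06 to 1.35 CPM in EE Sham, 1.10 to 1.19 CPM in SH SNA and 1.96 to 2.58 CPM in EE + SNA. It did not overlap under either surgery, and it was also the highest in fold change of the non-overlapping higher genes at a mean of at least 1 CPM (log2 fold change 0.72 ± 0.18, adjusted P = 0.65). Sh2d4a, Gm14443, Gm13716 and BC051226 followed it, at 0.57, 0.54, 0.52 and 0.50 on the log2 scale. In Sh2d4a no sample was above 3.66 CPM, so that few reads stand behind these genes.

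**Figure D4:**
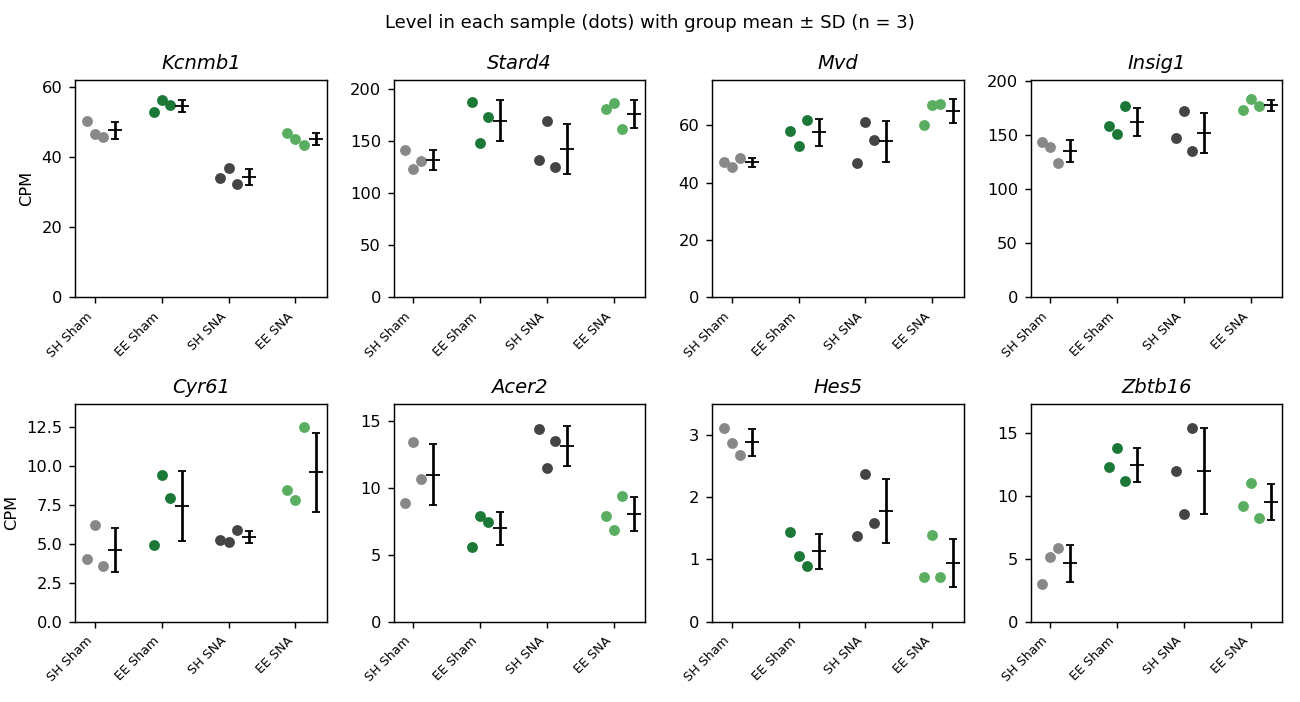
CPM in each of the 12 samples (dots) with the group mean and SD (n = 3) for Kcnmb1, Stard4, Mvd, Insig1, Cyr61, Acer2, Hes5 and Zbtb16. The first 5 are higher and Acer2 and Hes5 lower in EE under both surgeries, by their means, while the Zbtb16 groups are apart under sham, at 11.1 to 13.8 CPM against 2.99 to 5.82 CPM, and overlap under SNA.

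Of the genes lower in EE, Acer2 had the smallest P-value of all genes tested. It encodes an alkaline ceramidase of the Golgi, which frees sphingosine from ceramide (ENSMUSG00000038007, chromosome 4 from 86874396 to 86934822). Its level was 8.86, 13.4 and 10.7 CPM in SH Sham, 5.59, 7.89 and 7.47 CPM in EE Sham, 14.4, 11.5 and 13.5 CPM in SH SNA and 7.92, 6.88 and 9.43 CPM in EE + SNA. The groups did not overlap under either surgery, with the highest EE sample under each below the lowest SH sample. On the log2 scale the difference (EE minus SH) was -0.68 ± 0.12 (adjusted P = 0.164), and it was -0.64 within sham and -0.72 within SNA. Hes5, a transcriptional repressor that Notch signalling induces, was at 3.11, 2.87 and 2.67 CPM in SH Sham, 1.44, 1.06 and 0.894 CPM in EE Sham, 1.38, 2.37 and 1.59 CPM in SH SNA and 0.712, 1.39 and 0.725 CPM in EE + SNA. The sham groups did not overlap, and under SNA EE replicate 2 just exceeded the lowest SH sample. Its log2 fold change was -1.09 ± 0.21 (adjusted P = 0.47). Of its exon bases 31.8% overlap Gm20421 on the other strand, which was also lower (-0.95, adjusted P = 0.809), and without a stated strand setting the reads of the 2 genes cannot be told apart.

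Few matrix genes passed, and in both directions. Of the 28 members of the list of collagens and matrix, all tested, 3 were higher (Tnc, Eln and Dcn, at 0.50, 0.40 and 0.16) and 1 was lower (Col15a1, at -0.21). Of all genes 2.56% were higher and 2.13% lower. Under 24 alternatives Dcn passed in 10, Eln in 13 and Col15a1 in 21. Nid2, a nidogen of basement membranes, was at 12.6 to 13.8 CPM in SH Sham, 9.49 to 11.1 CPM in EE Sham, 13.5 to 14.0 CPM in SH SNA and 10.8 to 11.9 CPM in EE + SNA, with no overlap under either surgery (log2 fold change -0.30 ± 0.066, adjusted P = 0.542). Chst2, a sulfotransferase of N-acetylglucosamine, was at 69.4 to 75.2 CPM in SH Sham, 60.5 to 67.0 CPM in EE Sham, 96.7 to 107 CPM in SH SNA and 80.5 to 89.7 CPM in EE + SNA, also with no overlap (-0.21 ± 0.046, adjusted P = 0.542). Lect1, chondromodulin (-0.35 ± 0.079), and P4ha1, a collagen prolyl hydroxylase (-0.21 ± 0.056), were also lower. Cdk5r1, the p35 activator of the neuronal kinase Cdk5, was at 42.7 to 45.1 CPM in SH Sham, 36.4 to 39.5 CPM in EE Sham, 28.8 to 33.6 CPM in SH SNA and 22.9 to 27.3 CPM in EE + SNA. It was lower with EE and also lower with SNA (-0.52), without overlap of housing groups under either surgery (-0.23 ± 0.056, adjusted P = 0.65). Ephb2, a receptor of ephrins, Net1, an exchange factor of small GTPases, Slc4a11, a membrane transporter, Tra2a, a splicing factor, and Srm, the spermidine synthase, had log2 fold changes of -0.41, -0.23, -0.30, -0.18 and -0.20, and in each the groups did not overlap under either surgery. Among the non-overlapping lower genes with the largest differences were also AC163357.1 and Tnni1, a troponin of slow muscle (-0.64 and -0.46), both at low levels.

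Chosen after their values were seen, from the 39 genes that passed in both fits, are the ligand and a receptor of endothelin. Edn1, endothelin 1, was at 1.11 to 1.81 CPM in SH Sham, 1.53 to 3.42 CPM in EE Sham, 1.61 to 2.55 CPM in SH SNA and 2.74 to 3.55 CPM in EE + SNA, with no overlap under SNA (log2 fold change 0.68 ± 0.19). Ednrb, the endothelin B receptor, which satellite glia express, went the other way. It was at 78.6 to 109 CPM in SH Sham, 67.8 to 83.9 CPM in EE Sham, 74.4 to 104 CPM in SH SNA and 69.8 to 77.6 CPM in EE + SNA, overlapping under both surgeries (log2 fold change -0.28 ± 0.084).

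Genes of vessel walls were read by cell type, beside shares over all genes of 2.56% higher and 2.13% lower in the pooled fit. Of 11 pericyte and smooth muscle markers 4 were higher and 0 lower, while 0 passed within sham and 4 within SNA. Acta2, Tagln and Myh11, contractile proteins of smooth muscle, had log2 fold changes of 0.52 ± 0.19, 0.37 ± 0.16 and 0.40 ± 0.17, and Cspg4, the pericyte proteoglycan NG2, of 0.31 ± 0.088. Acta2 was at 16.9, 24.0 and 15.2 CPM in SH Sham and 11.7, 36.7 and 21.4 CPM in EE Sham, which overlap, and at 25.3, 18.2 and 15.5 CPM in SH SNA and 35.2, 29.7 and 31.2 CPM in EE + SNA, which do not. The summed level of the 11 markers was 340 to 371 CPM in SH Sham, 351 to 408 CPM in EE Sham, 369 to 415 CPM in SH SNA and 436 to 459 CPM in EE + SNA. Over samples left out in turn 2 to 5 markers passed (2 without EE Sham replicate 2, EE + SNA replicate 1, SH Sham replicate 1 or 3, or SH SNA replicate 3), and 1 passed with DESeq2. The level of these markers, from the same libraries, was put in the model as a covariate after the data were seen. Kcnmb1 then had a log2 fold change of 0.25 and Cyr61 one of 0.55, and both passed, as did Mvd, Insig1, Lss, Idi1 and Acer2. Perp (0.13) and Plin4 (0.32) of the 39 genes no longer passed, nor did Gata2, Cx3cr1, Ppp1r15a, Klf4 and Stat2 among others named or checked. In that fit 1079 genes passed in all, and 375 of them were among the 762. Whether cells of vessel walls have a part in the shift of any of these genes was not tested. Of 14 endothelial markers 1 was higher, Kdr, a receptor of VEGF (0.22 ± 0.091), and 0 were lower. Their median was -0.064 within sham, where 1 was lower (Cldn5, a claudin of vessel junctions, -0.52 ± 0.17), and 0.17 within SNA, where 4 were higher, and 2 differed between surgeries by the interaction, Cldn5 and Plvap.

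**Figure D5:**
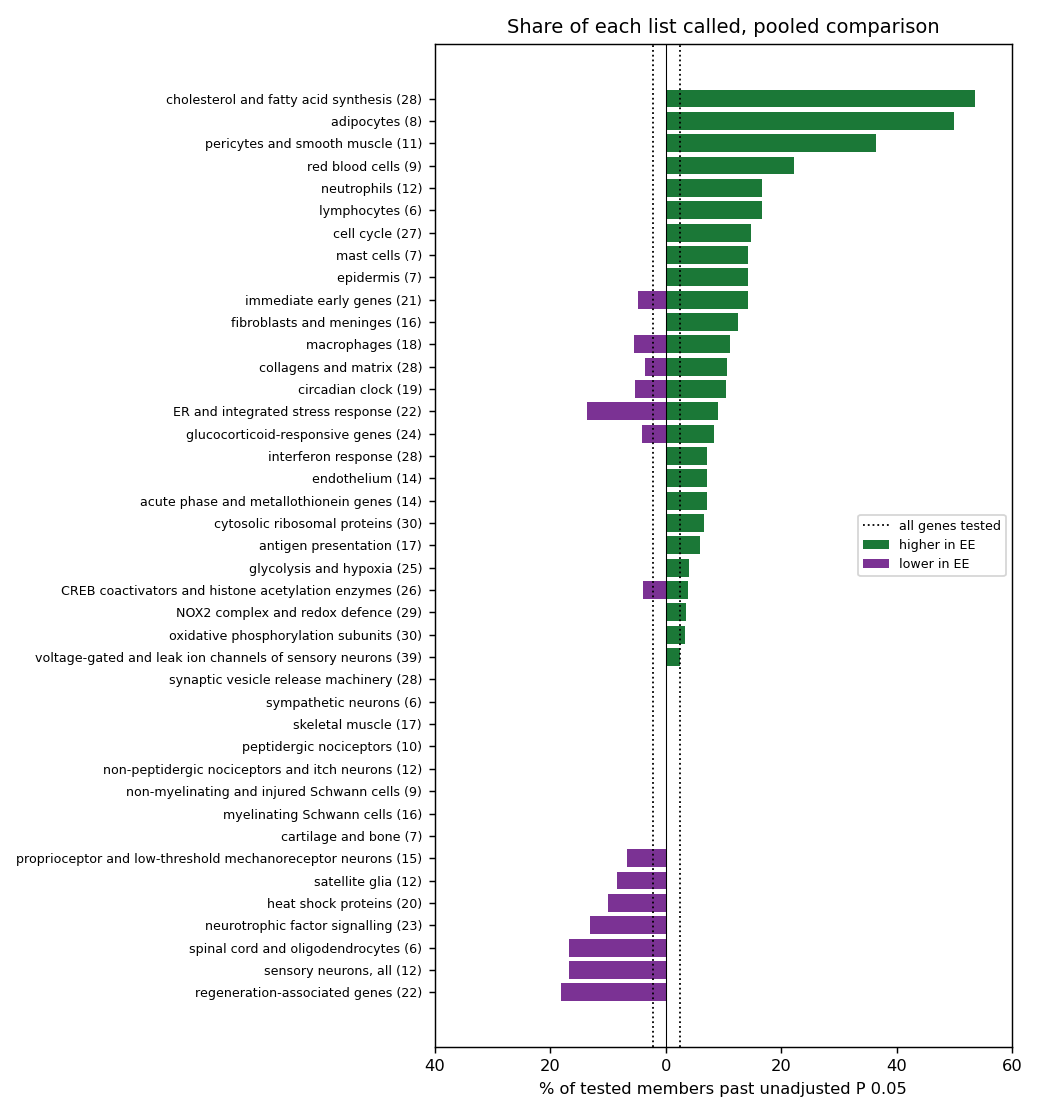
Percent of the tested members of each gene list (number of members in parentheses) that passed an unadjusted P-value of 0.05 in the pooled comparison, higher in EE to the right and lower to the left. Dotted lines mark the shares over all genes tested, 2.56% and 2.13%, and the cholesterol and fatty acid synthesis list reaches furthest to the right with 15 of 28 members.

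Genes of axon growth and of neurons were read next. Of 22 regeneration-associated genes tested 0 were higher and 4 were lower, where 2.13% of all genes were lower. These were Gap43, a protein of growth cones (log2 fold change -0.10 ± 0.041), Ecel1, a protease induced by nerve injury (-0.41 ± 0.15), Ddit3, a transcription factor of the stress response (-0.13 ± 0.049), and Tubb3, the neuronal tubulin (-0.092 ± 0.039). Within sham 2 members were higher and 0 lower, with a median of 0.048, and these were Atf3 (0.30 ± 0.10) and Flrt3 (0.30 ± 0.099), an adhesion protein, the 2 members that passed by the interaction. Within SNA 0 were higher and 5 lower, with a median of -0.073: Gal, Npy and Nts, which encode neuropeptides, at -0.38, -0.46 and -0.45, Ecel1 at -0.61 and Ddit3 at -0.16. Gap43, Ecel1 and Ddit3 were themselves higher after SNA than after sham surgery (0.35, 0.61 and 0.39). Gap43 was at 223 to 243 CPM in SH Sham, 217 to 226 CPM in EE Sham, 279 to 320 CPM in SH SNA and 272 to 284 CPM in EE + SNA, and the housing groups overlapped under both surgeries. Tubb3 did not overlap under either surgery. Of 12 pan-neuronal markers 0 were higher and 2 lower, Tubb3 and Nefl (-0.090 ± 0.042), whose exons overlap those of Nefm, and neither passed in every leave-one-out fit (0 of the 12 without EE Sham replicate 3 or SH Sham replicate 3). Summed, the neuronal markers were at 14786 to 15250 CPM in SH Sham and 13865 to 14464 CPM in EE Sham, and at 13369 to 14276 CPM in SH SNA and 13289 to 13738 CPM in EE + SNA. They were thus lower in EE without overlap under sham, and overlapped under SNA. The part of this in the other lower genes was not tested. Of 23 neurotrophic factor genes 0 were higher and 3 lower, among them Gfra3, the artemin receptor (-0.17 ± 0.056). Of 39 ion channel genes of sensory neurons 1 was higher and 0 were lower, against 2.56% and 2.13% of all genes. This was Kcns3, a potassium channel subunit (0.12 ± 0.040), at 66.0 to 70.0 CPM in SH Sham, 71.6 to 72.1 CPM in EE Sham, 48.2 to 53.2 CPM in SH SNA and 55.3 to 58.4 CPM in EE + SNA, with no overlap under either surgery.

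Genes tied to stress hormones, the clock and neuronal activity showed single members but no common direction. The counts stand beside 2.56% higher and 2.13% lower over all genes. Of 24 glucocorticoid-responsive genes 2 were higher and 1 lower, and 10 of 24 had the same sign under both surgeries, against 53.3% of all genes. Plin4, a coat protein of lipid droplets, was at 4.28, 14.7 and 13.1 CPM in SH Sham, 11.9, 38.5 and 19.3 CPM in EE Sham, 32.6, 22.6 and 30.5 CPM in SH SNA and 38.8, 40.3 and 36.7 CPM in EE + SNA. The SNA groups did not overlap and the sham groups did (log2 fold change 0.75 ± 0.25). Fat cells express Plin4 too, and the adipocyte markers were highest in EE + SNA. Nr3c1, the glucocorticoid receptor, was at -0.029 ± 0.055. Of 19 clock genes 2 were higher and 1 lower: Bhlhe40 and Nr1d1, both repressors, had 0.16 ± 0.049 and 0.11 ± 0.050, and Per1 had -0.19 ± 0.064. Of 21 immediate early genes 3 were higher (Klf4, Btg2 and Dusp1) and 1 was lower, Egr3, with -0.82 ± 0.25 at 0.484 to 1.94 CPM. The times of day at which ganglia were taken are not given in the sources used here.

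The complexes that the study is about were read as well, beside the 2.56% higher and 2.13% lower among all genes. Of 29 genes of NOX2 and redox defence 1 was higher, Gpx3, a secreted glutathione peroxidase (0.13), and 0 were lower. Gpx3 passed in 10 of 24 alternatives. The subunits Cyba, Cybb, Ncf1, Ncf4 and Rac2 had pooled values from 0.27 to 0.38 on the log2 scale that did not pass, and from -0.066 to 0.078 without EE + SNA replicate 3, the library with many neutrophil transcripts. Of 26 genes of CREB coactivators and histone acetylation 2 passed in opposite directions, Kat2b (0.11) and Kat2a (-0.11), both lysine acetyltransferases. Crebbp and Ep300, the acetyltransferases CBP and p300, had -0.056 and -0.028. Of 28 genes of synaptic vesicle release 0 passed in either direction.

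Immune genes were read beside the library with many neutrophil transcripts. Among all genes 2.56% were higher and 2.13% lower. All 12 neutrophil markers tested had positive values with a median of 0.56, and 2 passed, Mpo (1.20 ± 0.47) and Elane (1.39 ± 0.55), both enzymes of the granules. Mpo was at 2.85, 1.70 and 15.2 CPM in EE + SNA, the last of these being the replicate with the high marker sum, against 1.18 to 4.22 CPM in SH SNA. Without that replicate Mpo (0.51 ± 0.37) and Elane (0.45 ± 0.37) no longer passed, 0 of the 12 did, and the median was 0.075. Elane also did not pass without SH SNA replicate 2. Of 27 cell cycle genes 4 were higher, and 0 were without that replicate, 1 without SH Sham replicate 3, SH SNA replicate 2 or EE Sham replicate 2 and 5 at most. Of 18 macrophage markers 2 were higher (Cx3cr1 and Ccr2) and 1 lower (Emr1, now Adgre1), with no common direction, and Ccr2 (0.44 ± 0.17) did not pass without EE + SNA replicate 3 (0.28 ± 0.14).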

How the data were processed

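RNA-seq of sciatic DRG was taken for 12 samples in 4 groups of 3, grouped by the labels. Per the labels and the methods, the authors aligned paired-end reads (TruSeq mRNA) to mm10 with TopHat2 2.0.12 and Bowtie2 2.2.3, sorted them with SAMtools 0.1.19 and deposited raw read counts per gene name, made with HTSeq. The strand setting is not given in the sources used here, and overlapping genes may share reads. The deposited FPKM values of the authors, whose tool is not stated, served only as an alternative scale. The 5 HTSeq summary rows were left out.

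Counts were tested with edgeR 4.0.16 in R 4.3.3 (limma 3.58.1): TMM scaling, filterByExpr (minimum count 10, minimum total 15), and the quasi-likelihood F test on surgery plus housing. Separate fits were made within sham and within SNA, and 1 with an interaction. Calls used an unadjusted P-value of 0.05, the study's threshold, and a Benjamini-Hochberg adjusted one of 0.05. The code was tested on simulated data. Alternatives were DESeq2 1.42.0, the likelihood ratio test, library-size scaling, other filters, FPKM with pseudocounts of 1 and 0.1, the replicate block, 1 fit of all samples, and each sample left out. The 3 marker covariates, the lists of acetyl-CoA supply and sterol efflux, and the sterol and CCAAT motifs were added after the data were seen.

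Genes were named by rule: the 12 higher and 12 lower genes with the smallest P-value, a mean of at least 1 CPM and the same sign under both surgeries, up to 5 non-overlapping genes per direction by size, the leading members of the lists, and the leading interaction genes. Other cholesterol genes and the endothelin genes were named after their values were seen. Some members of the lists are counted but not reported here by name. The members and all 42 lists were chosen with earlier results of these data known.

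Replicate numbers are shared by the groups in the labels. Deviations from group means correlated between same-numbered EE and SH samples. The values were 0.331, 0.137 and 0.111 within sham and 0.0573, 0.113 and 0.126 within SNA. Between samples with different numbers they ran from -0.332 to 0.194 within sham and from -0.123 to 0.0403 within SNA. Under sham these ranges overlap, while within SNA every same-numbered value lay above every value between different numbers. The data do not settle a pairing, and no stated design gives one. The choice matters: 106 genes were shifted the same way with the replicate block, against 39 without it. The main fits used no pairing. Nothing says that samples beyond the pooled mice came from separate cages, and P-values then measure only the spread between these samples. Gene positions are from GRCm38 with the GENCODE annotation, and promoter sequences from RefSeq.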

Additional observations from a re-analysis of the deposited data

Results flagged for a closer look

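By the interaction of housing and surgery, 10 of the 165 genes named or checked (6.06%) passed an unadjusted P-value of 0.05. The share over all genes tested was 2.61%. Zbtb16, Gpr151, Fam124a, Klhdc1 and Gm4723 were named for their small interaction P-value, which raises the share among the named genes. None passed after adjustment in edgeR's test. Values are the EE effect under SNA minus that under sham, on the log2 scale. Zbtb16, a zinc finger repressor that glucocorticoids are known to induce, had -1.75 ± 0.31 (adjusted P = 0.458). It was at 2.99, 5.09 and 5.82 CPM in SH Sham, 12.3, 13.8 and 11.1 CPM in EE Sham, 11.9, 8.53 and 15.4 CPM in SH SNA and 9.17, 11.02 and 8.22 CPM in EE + SNA. The sham groups were apart and the SNA groups overlapped.

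Gpr151, a receptor that nerve injury induces, had -0.63, being higher in EE under sham and lower under SNA. Atf3 had -0.40, with 0.30 under sham and -0.10 under SNA. Fam124a had -0.53, Klhdc1 -0.62, Gm4723 -0.86 and the potassium channel gene Kcnq3 -0.53. Mrgprb5, a receptor gene of the Mrgpr family, had 0.80, and the clock repressor Nr1d1 0.20. Myh2, a myosin of skeletal muscle, had -3.85, and the muscle markers were highest in SH SNA replicate 2, without which it had -0.39 and did not pass. Groups of 3 samples were not tested for single outlying samples.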

How the results depend on the processing

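The count of cholesterol and fatty acid genes higher in EE stayed within 1.5 times its value under all 24 alternatives, and 48 of the 103 named genes that passed in the pooled comparison passed under each of them. With DESeq2, 19 genes were shifted the same way and 1 in opposite directions, 4 passed after adjustment in the pooled comparison, and 207, 312 and 186 passed within sham, within SNA and by the interaction. The likelihood ratio test gave 5 pooled genes after adjustment and 3 in opposite directions, and both FPKM scales gave 19 in opposite directions. With no filter the counts were 109 the same way, 55 opposite, 132 pooled after adjustment and 1299 before, 887 within sham, 1096 within SNA and 854 by the interaction. With the replicate block 106 genes were shifted the same way, 26 in opposite directions, and 847 passed within sham, and 877 in the pooled comparison. The causes were not tested, beyond the larger number of genes tested with no filter.

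With each sample left out in turn, 22 to 60 genes were shifted the same way and 5 to 18 in opposite directions, 651 to 1109 passed in the pooled comparison, 368 to 852 within sham, 557 to 950 within SNA and 362 to 771 by the interaction. The sign turned for Ddx3y (-0.015 to 0.084) and Srebf2 (-0.057 to 0.0017) over samples left out, and with a covariate for Srebf2 (0.014, adipocyte level), Ucp1 (-0.66, adipocyte level), Mvk (-0.034) and Retn (-0.088, both pericyte level). Genes at 1 or 2 CPM rest on few reads, and with pools of 2 mice and 3 samples per group single genes are limited by the spread between samples.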
